A study of Mus musculus with 8 samples.

Results

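Cadherins are calcium-dependent adhesion proteins of the cell surface. The genes described here are the 88 of 17631 genes in the authors' deposited table whose symbols name a numbered cadherin (Cdh), a protocadherin (Pcdh), a desmoglein (Dsg) or a desmocollin (Dsc1 to Dsc3). By subfamily they are 15 classical cadherins (5 of type I and 10 of type II), 4 other numbered cadherins, 7 desmosomal cadherins, 50 clustered protocadherins (7 alpha, 21 beta and 22 gamma) and 12 non-clustered protocadherins. The same name pattern finds 101 genes in the GENCODE M21 annotation, and the genes outside the 88 were not analysed here.

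RNA was sequenced from the apical part of lower first molars of C57BL/6 mice at postnatal day 7.5, as 2 x 50 nt reads, with 4 libraries in each of 2 groups. Control mice carried Runx2fl/fl, and mutant mice carried Gli1-CreERT2;Runx2fl/fl, in which a tamoxifen-dependent recombinase is made where Gli1 is active. Both groups therefore share the floxed Runx2 alleles, and the labels give 1 treatment protocol for all libraries, tamoxifen into the peritoneum at postnatal day 3.5 (1.5 mg per 10 g of body weight). The driver is present in the mutant group alone, so Runx2 loss and an effect of the driver itself cannot be told apart. The labels do not say whether a library is 1 animal, and the p-values cover only the variation among the sequenced libraries, part of which can be technical.

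The table gives 1 normalised group mean per gene and group, with the authors' p-value. Values of single libraries, their spread and their depth are therefore not known here, and no standard error, SD or count of libraries in 1 direction can be given. Unless stated otherwise, group means (normalised signal on a linear scale), fold sizes and p-values below are those of the authors' deposited table. Log2 ratios, mutant over control, and medians were computed from it, and the adjusted p is the Benjamini-Hochberg value over all 17631 genes, with a threshold of 0.05. The tissue held RNA of tooth-forming cells, with means of 7360 in mutant and 7714 in control molars for the odontoblast gene Dspp (adjusted p of 0.931) and 112174 and 174946 for the enamel matrix gene Amelx (adjusted p of 0.457). Runx2 itself, measured over the whole gene and not only over the floxed part, had means of 65.1 in mutant and 105.5 in control molars (adjusted p of 0.0646). Gli1 had means of 19.9 and 38.8 (adjusted p of 0.0228).

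Classical cadherins join like cells at adherens junctions, where their tails bind beta-catenin, p120-catenin and, through alpha-catenin, the actin skeleton. Desmosomal cadherins do the equivalent in epithelial desmosomes, which are anchored to keratin filaments. Clustered protocadherins lie in 3 neighbouring arrays, in each of which a promoter is chosen per variable exon, and are best known for giving neurons a surface identity. In the alpha and gamma arrays the variable exons are spliced to shared constant exons, whereas beta genes are single exons. In teeth, E-cadherin and P-cadherin mark the epithelium, while N-cadherin and cadherin-11 are found in mesenchyme and odontoblasts.

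No cadherin superfamily gene passed the threshold in either direction in the authors' deposited table, where 0.788% of all genes did. The lowest adjusted p-values belonged to 3 type II cadherins, Cdh12 (0.0661), Cdh8 (0.0698) and Cdh6 (0.0750), each with a higher mean in the mutant. At an unadjusted p under 0.05 there were 20 of 88 members (22.7%) against 19.3% of all genes, so the share of low p-values was near the background. Of these 20 members, 18 were higher in the mutant and 2 lower, against 9.89% of all genes higher and 9.4% lower. With the threshold at 0.10, 4 members were higher (Cdh12, Cdh8, Cdh6 and Pcdhb18) and 0 lower, where 2.01% of all genes were higher and 1.63% lower.

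The differences were mostly small and in 1 direction. Of the 88 members, 74 (84.1%) had a higher mean in the mutant, against 50.6% of all genes, and the median log2 ratio was 0.21 against 0.0033 over all genes. This direction was shared by the 50 clustered protocadherins (42 with higher means) and by the other 38 members (32 with higher means). The members are not independent, because 60 of them lie on chromosome 18 and the alpha and gamma genes share exons. Transcripts poor in GC tended to have higher means in the mutant over the whole table, and the members' median GC content was 47.9% against 50.3% over all genes. With a smooth trend on GC content and transcript length subtracted, the members' median log2 ratio was 0.16, 72 of 88 were above 0, 71 of them also above 0 before it, and 0 members passed. Levels of several marker lists differed beside this shift, and their part in it was not tested. All 10 osteoblast markers and all 7 skeletal muscle markers in the table had lower means in the mutant. Their median log2 ratios were -0.55 and -0.73. The osteoblast list includes Runx2 itself. An unadjusted p under 0.05 was found for 6 of the 10 (60.0%, against 19.3% of all genes), while Col1a1 (log2 ratio -0.02) and Phex (-0.0078) were almost level. The muscle markers were scarce, with control means of at most 1.98, and 3 of the 7 reached a mean of 1 in either group. Their lowest adjusted p was 0.162. Of 8 odontoblast and ameloblast markers, 6 had lower means in the mutant. The summed means of the 8 were 183948 in mutant and 267732 in control molars. Most of that difference lay in Amelx (112174 and 174946, adjusted p of 0.457) and Ambn (53601 and 72752, adjusted p of 0.503). Dspp (7360 and 7714) and Nes (660 and 638) were nearly level, and Klk4 had the lowest p (321 and 511, adjusted p of 0.0697). Of 7 haematopoietic markers in the table, 3 had higher and 4 lower means, with summed means of 485 and 835. The lower sum in the mutant lay in the erythroid genes Hbb-bs (190 and 423), Hba-a1 (92.5 and 223) and Alas2 (5.93 and 11.6). Of these the haemoglobin gene Hba-a1 passed the threshold (adjusted p of 0.0484). The leukocyte gene Ptprc (8.65 and 5.50, adjusted p of 0.0608), Adgre1 (28.2 and 20.5) and Csf1r (140 and 130) had higher means, and Cd68 (19.7 and 20.8) a lower one. The plot of group means shows how close most members lie to equal levels.

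**Figure D1:**
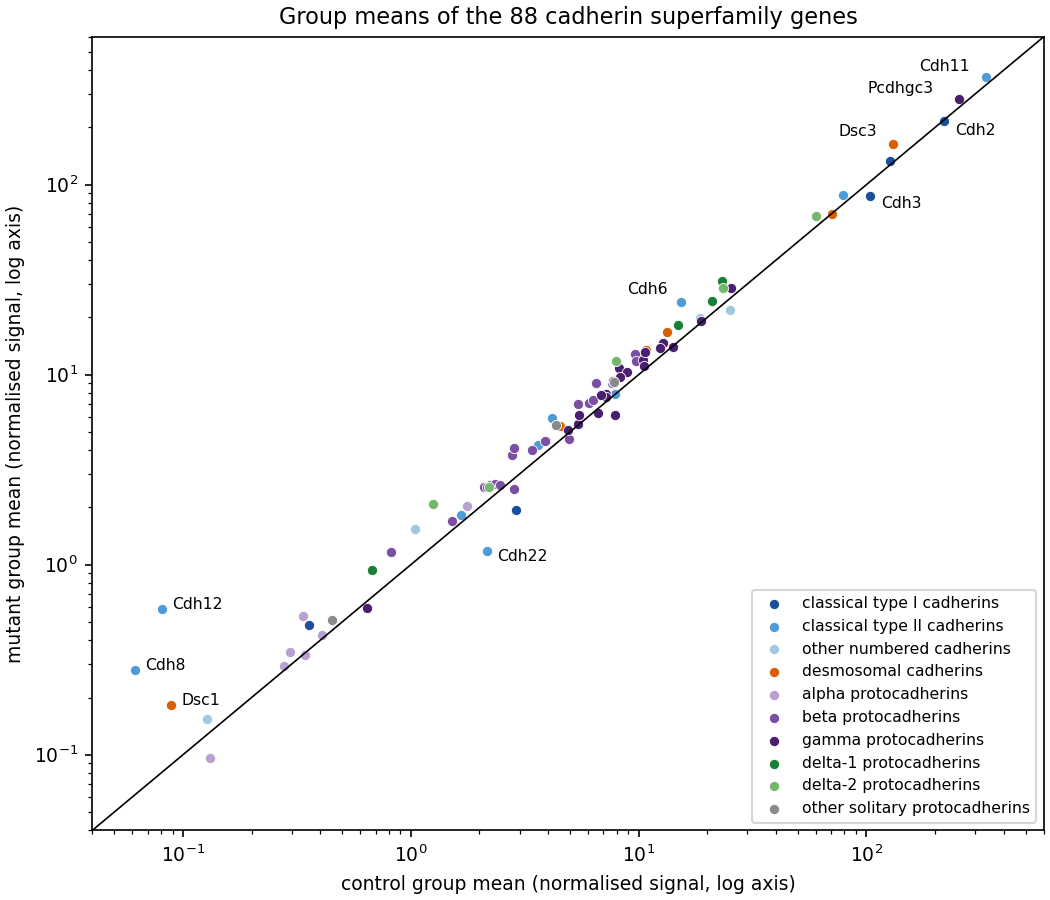
Group means of the 88 genes, control on the horizontal and mutant on the vertical axis, both as normalised signal on log axes; each point is 1 gene, coloured by subfamily, and the line marks equal means. Cdh11 and Pcdhgc3 are at the top right, Cdh12 and Cdh8 stand far above the line at the lowest levels, and Cdh22 lies below it.

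In the authors' deposited table, levels of the main epithelial and mesenchymal type I cadherins were close between the groups. Cdh2, which encodes N-cadherin, had a mean of 217 in mutant and 219 in control molars (log2 ratio -0.01, adjusted p of 0.936). Cdh1, which encodes E-cadherin, had means of 133.6 and 126.6 (log2 ratio 0.08, adjusted p of 0.676). Cdh3, which encodes P-cadherin, lies upstream of Cdh1 on chromosome 8, with 46053 bases between them. Its means were 87.6 in mutant and 104 in control molars (log2 ratio -0.25, unadjusted p of 0.0632, adjusted p of 0.284). The 2 genes thus had log2 ratios of opposite sign, neither of them past the threshold.

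Epithelial markers gave no common shift beside these values. Of 10 epithelial markers, 4 had higher and 6 lower means in the mutant, with a median log2 ratio of -0.09 and a summed mean of 3018 in mutant and 2984 in control molars. The keratin genes Krt5 (1222 and 1192, adjusted p of 0.883) and Krt14 (923 and 973, adjusted p of 0.711) were the most abundant of them. In a bulk tissue, fewer cells of a type and less RNA per cell cannot be told apart.

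The remaining type I genes were scarce. Cdh4, which encodes R-cadherin, had means of 1.95 in mutant and 2.90 in control molars, with a log2 ratio of -0.57 (unadjusted p of 0.0305, adjusted p of 0.210). Cdh15, the M-cadherin gene of muscle, had 0.479 and 0.357 (adjusted p of 0.565). Skeletal muscle markers had ratios of the opposite sign to Cdh15: all 7 of the 10 listed markers that the table gives had lower means in the mutant, with a median log2 ratio of -0.73 and summed means of 3.61 and 6.28.

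Type II cadherins held the greatest ratios of the family and, in the means as deposited but not per exonic length, the highest level. Cdh11, the cadherin of osteoblasts and mesenchyme, had the highest control mean of all 88 genes, 336 against 367 in the mutant (log2 ratio 0.13, adjusted p of 0.654). Cdh5, the VE-cadherin of endothelial junctions, had 79.2 in control and 88.1 in mutant molars (log2 ratio 0.15, adjusted p of 0.619). The 10 endothelial markers had a median log2 ratio of 0.07 and summed means of 230.1 in mutant and 214.5 in control molars, 8 of them with higher means. Neither type II gene of high level was thus past the threshold.

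Cdh6, or K-cadherin, had the lowest p-value of the members with a mean of at least 10 in the authors' deposited table. It had 24.01 in mutant and 15.4 in control molars, 1.56-fold higher, at a log2 ratio of 0.65 (unadjusted p of 0.00127, adjusted p of 0.0750). It was the 1 member with a mean of at least 10 in either group that passed at 0.10. With the GC and length trend subtracted its log2 ratio was 0.47 and its unadjusted p 0.0341. The control mean of Cdh11 was 21.9 times that of Cdh6, and 22.2 times when both means were divided by exonic length.

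Cdh12 and Cdh8, neuronal cadherins, had the greatest ratios at levels near the bottom of the table. Cdh12 had a mean of 0.586 in mutant and 0.0810 in control molars (7.23-fold, adjusted p of 0.0661), and Cdh8 had 0.279 and 0.0617 (4.52-fold, adjusted p of 0.0698). Those control means were the 2 lowest of the 88, and the lowest control mean of any gene was 0.0306, so both folds are poorly defined. With the GC and length trend subtracted, the unadjusted p was 0.0656 for Cdh12 and 0.0242 for Cdh8. Of 8 neuronal markers, 4 had higher means in the mutant, among them Gap43 (22.3 and 14.9, adjusted p of 0.103) and Syt1 (2.54 and 1.42, adjusted p of 0.137). Tubb3 (66.7 and 81.0) and Stmn2 (4.87 and 8.52, adjusted p of 0.0698) had lower ones. The median log2 ratio of the 8 markers was 0.21, and 0.07 with the GC and length trend subtracted. Their summed mean, of which Tubb3 made up the greatest part, was 98.2 in mutant and 107.3 in control molars, and none was at 0. The part of nerve RNA in the Cdh12 and Cdh8 values was not tested.

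Of the other type II genes, Cdh22 had the lowest log2 ratio of all 88 members. Its means were 1.18 in mutant and 2.16 in control molars (log2 ratio -0.87, unadjusted p of 0.0119, adjusted p of 0.150). Cdh19, a cadherin of Schwann cell precursors, had 5.93 and 4.18 (log2 ratio 0.51, unadjusted p of 0.0341, adjusted p of 0.221). Its transcripts had the lowest GC content of the family (37.7%), and its log2 ratio was 0.07 with the GC and length trend subtracted. Of 8 Schwann and glial markers, 3 had higher and 5 lower means, with summed means of 50.3 in mutant and 59.6 in control molars. The myelin gene Mbp (8.89 and 13.8, adjusted p of 0.120) was on the lower side, opposite to Cdh19. Cdh18, Cdh10 and Cdh24 had log2 ratios between 0.0047 and 0.23.

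The cadherins outside the classical types included 2 of moderate level. Cdh13, the membrane-anchored T-cadherin without a cytoplasmic tail, had means of 19.8 in mutant and 18.6 in control molars (adjusted p of 0.708). Cdh23, a long cadherin of hair cell tip links, had 21.96 and 25.2 (log2 ratio -0.20, adjusted p of 0.601). Cdh17, an intestinal cadherin, had 1.55 and 1.04 (log2 ratio 0.57, adjusted p of 0.313), and Cdh26 had 0.155 and 0.128 (adjusted p of 0.740). None of these 4 reached an unadjusted p of 0.05.

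The promoters of the 3 genes with the lowest p-values, and that of Cdh22, are shown because Runx2, the deleted factor, binds DNA. RefSeq promoter sequences (GRCm38.p6) matched 19 of the 88 members. Each run is the 250 bases before 1 RefSeq start, 5′ to 3′ on the gene's strand. Capitals mark the 6-letter RUNX cores TGTGGT and TGCGGT on either strand. A RefSeq start can differ from the start of the GENCODE gene. The Cdh12 window lies inside its GENCODE gene (20449265 to 21589533), and the Cdh22 window overlaps its own, which begins at 165234853 on the minus strand. Other starts of these genes were not searched. The windows are chr15:13173676-13173925 on the minus strand for Cdh6, chr8:99416472-99416721 on the minus strand for Cdh8, chr15:21111202-21111451 on the plus strand for Cdh12 and chr2:165234738-165234987 on the minus strand for Cdh22. Cdh22, the member with the lowest log2 ratio, was added after its sequence was seen, as a member with a match.
Cdh6: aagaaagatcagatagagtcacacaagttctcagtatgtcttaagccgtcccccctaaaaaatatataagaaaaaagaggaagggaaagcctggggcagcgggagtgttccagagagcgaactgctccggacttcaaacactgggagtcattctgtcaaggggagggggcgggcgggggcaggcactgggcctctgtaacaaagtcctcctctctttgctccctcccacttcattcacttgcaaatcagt
Cdh8: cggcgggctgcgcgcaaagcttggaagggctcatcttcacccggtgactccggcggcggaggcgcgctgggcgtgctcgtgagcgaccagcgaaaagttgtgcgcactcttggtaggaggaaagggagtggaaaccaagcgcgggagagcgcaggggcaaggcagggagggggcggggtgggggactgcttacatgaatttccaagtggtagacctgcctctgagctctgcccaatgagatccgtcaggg
Cdh12: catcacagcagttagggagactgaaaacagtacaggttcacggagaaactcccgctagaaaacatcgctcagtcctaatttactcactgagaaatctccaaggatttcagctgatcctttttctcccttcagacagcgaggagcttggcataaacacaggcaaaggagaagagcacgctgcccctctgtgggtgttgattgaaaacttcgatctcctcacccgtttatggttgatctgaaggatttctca
Cdh22: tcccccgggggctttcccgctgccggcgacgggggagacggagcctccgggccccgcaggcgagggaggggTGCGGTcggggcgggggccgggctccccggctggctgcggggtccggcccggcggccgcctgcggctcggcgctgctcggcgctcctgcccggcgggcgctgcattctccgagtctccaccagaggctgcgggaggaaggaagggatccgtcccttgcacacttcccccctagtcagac
These letters do not occur in the windows of Cdh6, Cdh8 and Cdh12. They occur once in that of Cdh22, with the first base at position -179 from its RefSeq start. Of the 20 windows of the 19 members, 4 (20.0%) held a core, against 18.6% of 32851 promoter windows in the RefSeq table. Besides Cdh22 these were the windows of Cdh10, Cdh15 and Pcdh15. Those genes had higher means in the mutant, at log2 ratios of 0.14, 0.43 and 0.19, none past the threshold. A first search that allowed any base in the third position (TGNGGT) found 8 of the 20 windows (40.0%) against 40.1%, and was narrowed afterwards because it takes in letters outside the known core. A match is a description of the letters and does not show that the factor binds there.

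Desmosomal cadherins, which are proteins of epithelial junctions, had higher means in the mutant for 6 of 7 genes, with a median log2 ratio of 0.32. The most abundant was Dsc3, a desmocollin of basal epithelial layers, with a mean of 163 in mutant and 130.4 in control molars (1.25-fold, unadjusted p of 0.0518, adjusted p of 0.263). It made up 57.9% of the summed desmosomal means in mutant and 54.3% in control molars. Dsg2, the desmoglein of simple epithelia and heart, had 69.9 and 70.8 (adjusted p of 0.969), and was the 1 member without a higher mean. Dsc3 and Dsg2, the 2 genes of highest level, thus had different ratios, though the difference between them was not tested.

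The less abundant desmosomal genes all had higher means in the mutant. Dsc2 had 13.5 in mutant and 10.8 in control molars (log2 ratio 0.32, unadjusted p of 0.0281, adjusted p of 0.205). Dsg1a had 16.8 and 13.3 (log2 ratio 0.34, unadjusted p of 0.0372, adjusted p of 0.230), and its close copy Dsg1b had 12.8 and 10.4 (log2 ratio 0.30, adjusted p of 0.268). Reads of such copies may be split between them in a way that is not known here. Dsg3, the pemphigus vulgaris antigen, had 5.37 and 4.52 (adjusted p of 0.687). Dsc1 had the very low means of 0.182 and 0.0888 (log2 ratio 1.03, adjusted p of 0.278).

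The intracellular desmosome genes had ratios in both directions in the authors' deposited table. Of 9 plaque and associated genes, 0 passed, and the median log2 ratio was -0.01. At an unadjusted p under 0.05, 2 had higher means and 1 a lower mean (33.3%, against 19.3% of all genes). Dsp, which encodes the desmoplakin that links desmosomes to keratins, had 357 in mutant and 282 in control molars (log2 ratio 0.34, adjusted p of 0.208). Ppl, or periplakin, had 21.6 and 15.9 (log2 ratio 0.44, adjusted p of 0.219), while the plakophilin gene Pkp3 had 39.5 and 49.5 (log2 ratio -0.33, adjusted p of 0.151). The desmosomal cadherin transcripts had a median GC content of 43.7%, and their median log2 ratio was 0.16 with the GC and length trend subtracted. No desmosomal cadherin had an unadjusted p under 0.05 in that form (Dsc2 0.195, Dsg1a 0.292). Of the epithelial markers, whose median log2 ratio was -0.09, Trp63 had 185.6 and 156.3 (adjusted p of 0.175) and Rab25 6.999 and 9.68 (adjusted p of 0.115).

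Genes of all 3 clustered protocadherin arrays are in the authors' deposited table, and Pcdhgc3 had by far the highest mean of them. Of the 22 gamma genes, Pcdhgc3 had a mean of 283 in mutant and 254 in control molars (log2 ratio 0.16, unadjusted p of 0.0804, adjusted p of 0.314). It alone took 56.3% of the summed gamma means in mutant and 55.9% in control molars, and its control mean was 9.98 times that of the next gamma gene, Pcdhgb6 (28.6 and 25.4, adjusted p of 0.438). Divided by exonic length, Pcdhgc3 had the highest control level of all 88 genes, above Cdh11, Cdh1, Cdh2 and Dsc3 in that order. Between 27.8% and 66.8% of the exonic bases of a gamma gene also belonged to another gene of the family, so how reads in the shared exons were assigned can set these levels.

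The gamma genes had log2 ratios from -0.35 to 0.40, with Pcdhgc3 at 0.16. Because of the shared exons, their ratios may rest in part on the same reads. The 12 A-type genes had a median log2 ratio of 0.15 and the 7 B-type genes 0.17, and 18 of all 22 gamma genes had higher means in the mutant. An unadjusted p under 0.05 was found for 13.6% of gamma genes, against 19.3% of all genes. The 3 with such a p were Pcdhga11 (10.8 in mutant and 8.20 in control molars, p of 0.00840, adjusted p of 0.133), Pcdhga5 (13.1 and 10.7, adjusted p of 0.238) and Pcdhgb4 (9.28 and 7.73, adjusted p of 0.244). Pcdhga3 (19.1 and 18.8) and Pcdhga7 (14.0 and 14.1), of higher level than these 3, had log2 ratios of 0.03 and -0.01. Pcdhgc4, a C-type gene, had the lowest gamma ratio, with 6.15 and 7.84 (log2 ratio -0.35, adjusted p of 0.381), and the remaining C-type gene Pcdhgc5 had 5.10 and 4.92. Pcdhgb8, annotated as a polymorphic pseudogene, had 0.588 and 0.645.

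The gamma genes were richer in GC than the family as a whole (median 52.5% against 47.9%). Their median log2 ratio was 0.15 as deposited and 0.17 with the GC and length trend subtracted. In that adjusted form, 4 of 22 gamma genes had an unadjusted p under 0.05, where 12.8% of all genes with an annotation did. All 4 were higher in the mutant, with Pcdhga11 lowest (log2 ratio 0.43, unadjusted p of 0.00398). The lowest adjusted p among them was 0.223.

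The 21 beta genes are single exons that share at most 9.67% of their bases with another gene of the family, so the shared-exon limit touches them little, although their coding sequences are alike. Of these, 19 had higher means in the mutant, with a median log2 ratio of 0.24 and control means from 0.822 (Pcdhb2) to 9.71 (Pcdhb22). Pcdhb18 had a mean of 4.13 in mutant and 2.83 in control molars (log2 ratio 0.55, unadjusted p of 0.00356, adjusted p of 0.0988). Pcdhb19 had 9.003 and 6.47 (log2 ratio 0.48, unadjusted p of 0.00615, adjusted p of 0.117), and Pcdhb17 had 12.8 and 9.65 (log2 ratio 0.40, unadjusted p of 0.0129, adjusted p of 0.155). Pcdhb16, Pcdhb20 and Pcdhb13 were the other 3 with an unadjusted p under 0.05, at log2 ratios of 0.36, 0.25 and 0.44. Such a p was found for 28.6% of beta genes, against 19.3% of all genes. The 2 with lower means were Pcdhb10 (2.49 and 2.83) and Pcdhb12 (4.57 and 4.96).

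All 6 beta genes with an unadjusted p under 0.05 lay in the distal part of the array, from Pcdhb13 to Pcdhb22. The 10 genes of that part had higher means in 10 of 10, with a median log2 ratio of 0.33 and summed means of 69.9 in mutant and 54.9 in control molars. The 11 genes from Pcdhb2 to Pcdhb12 had higher means in 9, a median of 0.19 and summed means of 38.0 and 34.6. This division was made after the values were seen and has no test. GC content differed along with it, with medians of 43.7% in the distal and 47.2% in the proximal part, and the subtracted medians were 0.24 and 0.12. With the trend subtracted no beta gene had an unadjusted p under 0.05, and Pcdhb18 stood at log2 0.37 (unadjusted p of 0.0548).

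**Figure D2:**
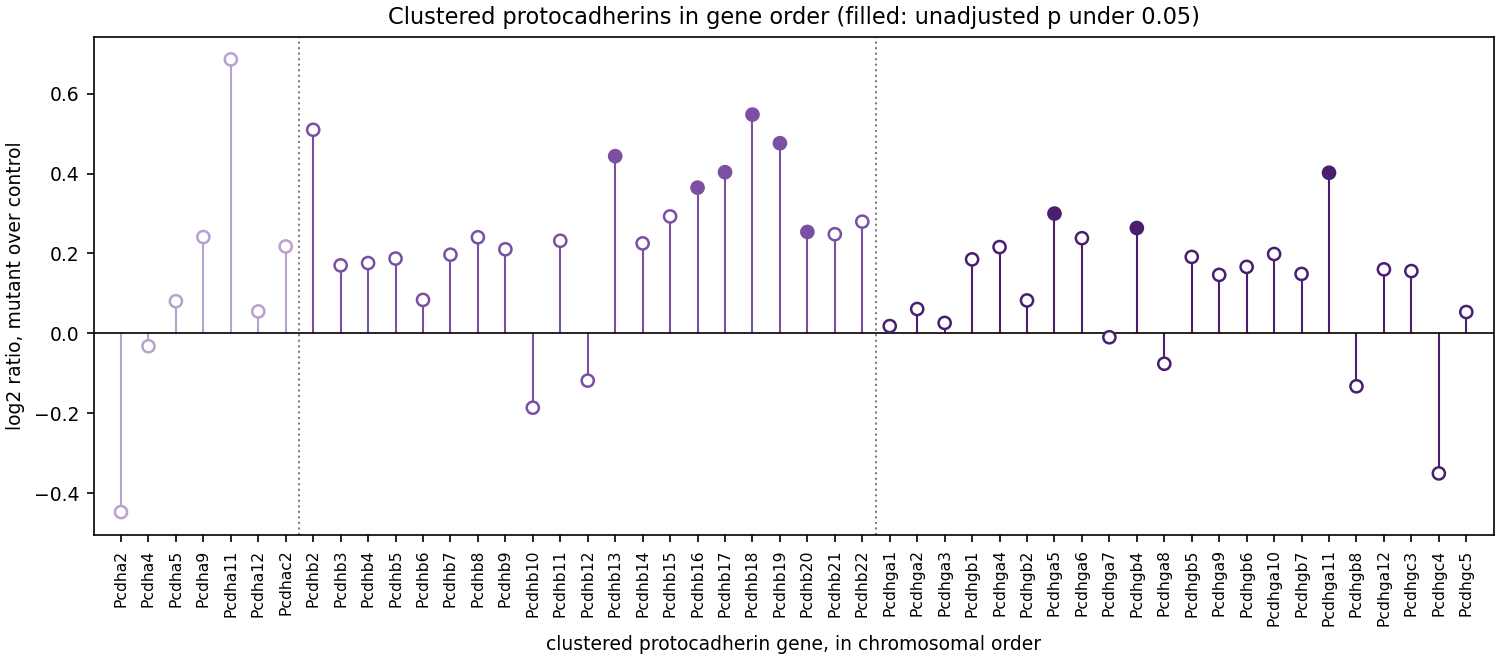
Log2 ratio of mutant over control mean for the 50 clustered protocadherins in their order along the chromosome, alpha, beta and gamma arrays from left to right, separated by dotted lines; filled points have an unadjusted p under 0.05. The filled beta genes all lie between Pcdhb13 and Pcdhb20, and 8 of the 50 genes lie below 0.

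Alpha protocadherins had the lowest summed means of the 3 arrays in the authors' deposited table. The 7 alpha genes in the table had control means from 0.131 to 1.76 and a summed mean of 4.08 in mutant and 3.55 in control molars, against 108 and 89.5 for the beta and 503 and 455 for the gamma genes. The C-type gene Pcdhac2 was the most abundant, with 2.04 and 1.76 (adjusted p of 0.516). Pcdha11 had the lowest alpha p-value, with 0.538 and 0.335 (log2 ratio 0.69, unadjusted p of 0.0645, adjusted p of 0.287), and Pcdha2 the lowest ratio, with 0.0965 and 0.131 (adjusted p of 0.818). Between 48.6% and 54.9% of the exonic bases of each alpha gene were shared with another.

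CTCF and cohesin bring a chosen promoter to its enhancer, and the silencing factor SMCHD1 and the methyltransferase DNMT3B repress promoters. Of 10 such genes 0 passed, and 9 had higher means in the mutant, against 50.6% of all genes. Their median log2 ratio was 0.16. Of the 10, 5 had an unadjusted p under 0.05, all with higher means in the mutant. Such a p was found for 19.3% of all genes, and for 9.89% with a higher mean. Stag2 had 100.9 in mutant and 80.5 in control molars (log2 ratio 0.33, adjusted p of 0.0967), Smc1a 72.0 and 59.9 (log2 ratio 0.27, adjusted p of 0.102) and Smchd1 45.9 and 34.96 (log2 ratio 0.39, adjusted p of 0.121). Ctcf itself had 60.5 and 58.4 (adjusted p of 0.706). The median of this list was 0.0021 with the GC and length trend subtracted.

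All 12 non-clustered protocadherins had higher means in the mutant, with log2 ratios from 0.19 to 0.73 and a median of 0.29. An unadjusted p under 0.05 was found for 3 of them (25.0%), near the 19.3% of all genes. Among the delta-1 genes, Pcdh9 had a mean of 31.0 in mutant and 23.2 in control molars (log2 ratio 0.42, unadjusted p of 0.00375, adjusted p of 0.102). Pcdh7, or BH-protocadherin, had 24.5 and 20.9 (adjusted p of 0.612), Pcdh1 18.2 and 14.8 (adjusted p of 0.353), and the X-linked Pcdh11x 0.937 and 0.678 (adjusted p of 0.476). The 12 stayed above 0 with the GC and length trend subtracted, with a median of 0.20.

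The delta-2 genes, which can bind the WAVE actin regulators through their tails, showed a range of levels. Pcdh18 was the most abundant, with means of 68.1 in mutant and 59.9 in control molars (log2 ratio 0.19, adjusted p of 0.458). Pcdh10, or OL-protocadherin, had 28.6 and 23.4 (log2 ratio 0.29, unadjusted p of 0.0512, adjusted p of 0.262). Pcdh17 had 11.7 and 7.94 (log2 ratio 0.56, unadjusted p of 0.00690, adjusted p of 0.121). Pcdh8 had 2.08 and 1.25 (log2 ratio 0.73, unadjusted p of 0.00982, adjusted p of 0.139), and the X-linked Pcdh19 had 2.56 and 2.21 (adjusted p of 0.636). Pcdh17 and Pcdh8 differed in GC content, at 44.4% and 59.3%. With the trend subtracted, Pcdh8 had the lowest p of all 88 members (log2 ratio 0.85, unadjusted p of 0.00101, adjusted p of 0.145), while Pcdh17 stood at 0.40 (unadjusted p of 0.119).

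Of the 3 other solitary protocadherins none reached an unadjusted p of 0.05. Pcdh12, found at endothelial junctions like Cdh5, had 9.19 in mutant and 7.80 in control molars (log2 ratio 0.24, adjusted p of 0.460). Pcdh20 had 5.44 and 4.33 (log2 ratio 0.33, unadjusted p of 0.0609, adjusted p of 0.280). Pcdh15, a tip-link partner of Cdh23, had 0.512 and 0.449 (adjusted p of 0.740).

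The deposited means are not said to be corrected for transcript length, so the order of levels between genes depends on that step. As deposited, the control order was Cdh11, Pcdhgc3, Cdh2, Dsc3, Cdh1, Cdh3, Cdh5, Dsg2 and Pcdh18. Divided by exonic length it was Pcdhgc3 (46.2 per kilobase), Cdh11 (37.7), Cdh1 (27.7), Cdh2 (27.2), Dsc3 (24.1), Cdh3 (23.8), Cdh5 (18.8), Pcdh18 (11.2) and Dsg2 (8.56). The same 9 genes thus led on both scales. Without a spread between libraries, neighbours in this order cannot be called different. The 5 genes Cdh1, Cdh2, Cdh3, Cdh5 and Cdh11 made up 94.9% of the summed classical means in mutant and 95.8% in control molars. In all, 32 of the 88 members reached a mean of at least 10 in either group, and 74 reached 1.

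Of the catenins and other adherens junction partners of classical cadherins, 0 of 14 passed. An unadjusted p under 0.05 was found for 1 (7.14%), against 19.3% of all genes. The 14 had a median log2 ratio of -0.02. Beta-catenin, encoded by Ctnnb1, had 947 in mutant and 961 in control molars (adjusted p of 0.902), and p120-catenin, encoded by Ctnnd1, had 197.6 and 183 (log2 ratio 0.11, adjusted p of 0.389). The lowest p belonged to the scarce alpha-T-catenin gene Ctnna3 (0.197 and 0.450, adjusted p of 0.122), followed by the nectin gene Nectin3 (99.9 and 84.5, adjusted p of 0.323).

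Cadherin relatives outside the name pattern gave both directions. The list of 19 giant, flamingo and other atypical cadherin genes also held Fjx1, which is not a cadherin, and 15 were in the table. Of these 15, 0 passed, and 4 had an unadjusted p under 0.05 with higher and 2 with lower means. The share under 0.05 was 40.0%, against 19.3% of all genes. The median log2 ratio of the list, 0.18, was the value of Fjx1 itself. Dchs2, a dachsous relative, had 6.64 and 4.26 (log2 ratio 0.64, adjusted p of 0.0646), and the giant cadherin gene Fat2 of epithelial cells had 51.9 and 33.2 (log2 ratio 0.64, adjusted p of 0.106). Its relatives Fat1 (530 and 417, adjusted p of 0.230) and Fat4 (86.6 and 66.4, adjusted p of 0.163) had higher means too, while the cadherin-like receptor gene Ret had 6.998 and 9.77 (log2 ratio -0.48, adjusted p of 0.114) and Clstn1 448 and 558 (adjusted p of 0.249).

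Cadherins are cut at the cell surface by ADAM proteases and then by gamma-secretase. Of 7 genes of these proteases 0 passed in the authors' deposited table, with 2 higher and 2 lower at an unadjusted p under 0.05. That is 57.1% of the list, against 19.3% of all genes. Adam10, the sheddase of E- and N-cadherin, had 192 and 164 (log2 ratio 0.23, adjusted p of 0.174), Adam17 46.5 and 37.5 (adjusted p of 0.134), Psenen 29.9 and 36.3 (adjusted p of 0.105) and Aph1a 93.9 and 108 (adjusted p of 0.172). Of 8 transcription factors that repress or maintain epithelial cadherins 0 passed. Zeb2, a repressor of Cdh1, had 89.5 and 68.3 (log2 ratio 0.39, adjusted p of 0.108), Snai2 43.5 and 38.4 (adjusted p of 0.230), Grhl2 8.22 and 6.20 (adjusted p of 0.240) and Ovol2 1.76 and 3.06 (log2 ratio -0.80, adjusted p of 0.150). Osteoblast markers had lower means in all 10 of 10 (median log2 ratio -0.55), with Sp7 and Bglap past the threshold, and the list includes Runx2 itself. Cdh11, a cadherin of osteoblasts, had a log2 ratio of 0.13, and of -0.0061 with the GC and length trend subtracted.

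Across the 74 members with a mean of at least 1 in either group, GC content and log2 ratio had a Spearman rho of -0.52, as a description over genes that share libraries and in part exons. Over the 13128 protein-coding genes of the same minimum it was -0.44. The eighth of those genes that was poorest in GC had a median log2 ratio of 0.19, and the richest -0.13. Pcdh8 and Cdh22 were near each other in GC content (59.3% and 62.3%) with log2 ratios of 0.73 and -0.87.

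**Figure D3:**
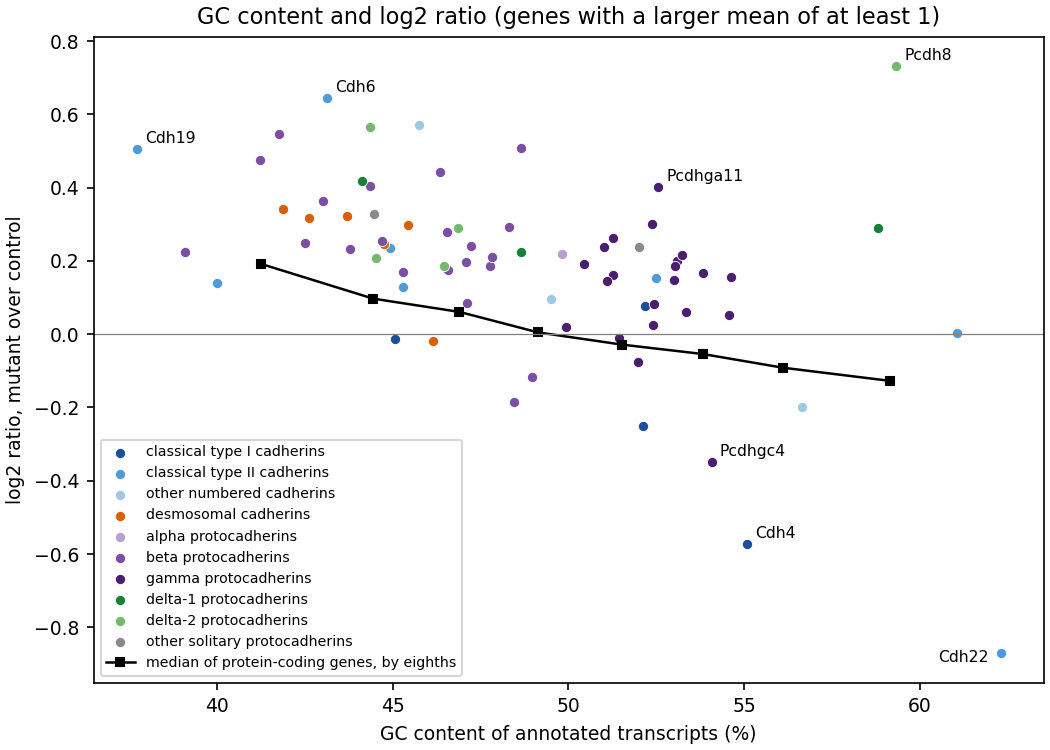
GC content of annotated transcripts against the log2 ratio of mutant over control mean for the 74 members with a larger mean of at least 1, coloured by subfamily; black squares are medians of protein-coding genes in eighths of GC content. The black medians run from 0.19 at the lowest to -0.13 at the highest GC content, and Pcdh8 (0.73) and Cdh22 (-0.87) stand at opposite ends of the ratios at high GC content.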

How the data were processed

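The submitters' processing notes name STAR 2.6.1d, Partek and mm10 and give no roles. For the annotation, counting, normalisation, filter and model the entry is: not given in the sources used here. By its header the file compares knockout with wild type, here called mutant and control. The group means and the total per gene are the authors' normalised signal, since the total is 4 times the summed means for all 17631 genes (relative tolerance 1e-06). The ratio is the authors' mutant over control mean, and the signed fold change, a score per the file headers, restates it. The p-value is the authors', and the deposited adjusted p-value equals the Benjamini-Hochberg adjustment over 17631 genes.

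The file holds no values per library, so the planned count test could not be run and the authors' adjusted p was used. Symbols matched GENCODE M21 (GRCm38) for 17562 genes (99.6%) and all 88 members, which gave exonic length, GC content and shared exons. For the GC and length alternative, smooth terms (mgcv 1.9.3, R 4.3.3) were fitted to the signed z of the authors' p and to the log2 ratio and subtracted. They took 22.2% and 13.3% of the variance. On simulated data with a trend added, the step was tested beforehand. It also removes real change that follows GC content. Other steps used Python 3.11.15.

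The members and gene lists were chosen with earlier results of these data known. The genes named are every member past the threshold, the 3 of highest mean and the 3 of lowest p per subfamily, members with a mean of at least 10, and of the other lists those of lowest p. Some other members were named after their values were seen, as were Ctnnb1, Ctnnd1, Ctcf, Fat1, Fat4, Adam10 and Trp63.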

Additional observations from a re-analysis of the deposited data

How the results depend on the processing

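With a threshold of 0.10 in place of 0.05, 4 members were higher in the mutant and none lower. The other 7 of 8 alternatives for the counts gave 0 members: the p-values adjusted again over the 14168 genes with a mean of at least 1 (lowest adjusted p of a member 0.0625), centring on the median of all genes, and subtraction of the GC and length trend, each per direction, and the threshold of 0.10 for lower members. Centring kept the authors' adjusted p and could change only the direction, so its counts of 0 were fixed in advance. At an unadjusted p under 0.05 there were 9 members (10.2%) after the subtraction, 7 of them among the 20 before it, against 12.8% of all genes with an annotation.

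Of 44 alternative medians, 36 moved by less than 0.1 in log2 with the same sign. Centring shifts every median by the same 0.0033, so its alternatives among the 36 were bound to be small. All 21 beta and all 5 delta-2 genes reached a mean of 1 in either group, so that filter could not change their medians. With members of a mean of at least 1, the type I median went from -0.01 to -0.13 and the alpha median from 0.08 to 0.22. With the GC and length trend subtracted, the type I median was -0.15, the desmosomal median 0.16, the delta-1 median 0.24 and the delta-2 median 0.16. With a pseudocount of 1 the median of the other numbered cadherins was 0.063 and that of the delta-1 genes 0.24. The cause was not tested.

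No paired analysis was possible because the file gives group means and no values per library, and for the same reason leaving out 1 replicate at a time was not run. Depth per library is unknown, so low means such as those of Cdh12, Cdh8 and the alpha genes carry an unknown error.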
